A study of Rattus norvegicus with 6 samples.

Results

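The transcripts described here carry symbols of the proteins of the cytosolic ribosome or of their copies. They were measured by RNA-seq in whole liver of 6 Sprague-Dawley rats labelled as 4 weeks old. The TPN group held 3 rats that were fed wholly by infusion into a vein (total parenteral nutrition, TPN) over 7 days and carry the disease label PNALD, parenteral nutrition-associated liver disease. The control group held 3 rats given 0.9% saline, with the disease label normal. The diet of the controls is not given in the sources used here. All 6 rats share strain, age and tissue, and the labels name no litter, batch or day. Each sample is taken here as 1 rat. The labels number the samples without stating that each is a separate animal, and p-values measure only the spread between these samples.

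Members were the rows of the deposited table whose symbol begins with Rpl or Rps and a digit, together with Rplp0, Rplp1, Rplp2 and Rpsa, without the Rps6 kinases and Rps19bp1. The rule found 95 of 25926 rows, 59 of the large subunit and 36 of the small subunit, under 88 distinct symbols. Rows were chosen by symbol, and no FPKM decided which row entered. The family as a whole was selected on its FPKM in TPN against control livers of these same rats, so the differences below are descriptions, and no count of members is offered as a test of the set. The 5 symbols Rpl21, Rpl32, Rpl38, Rpl7a and Rps27a stood in more than 1 row, 12 rows in all. Of the 80 proteins of the standard mammalian ribosome, 72 were matched by the rule. Fau and Rack1 have rows under symbols that the rule does not take and are given near the end. Rplp1, Rps7, Rps9, Rps14 and Rps26 were not analysed here. The other 16 rows carry symbols of paralogs or copies, such as Rpl22l1, Rps27l and Rps4x-ps9. RefSeq lists 2 of them as pseudogenes, Rps4x-ps9 and Rps10l1, with means of 56.3 and 41.1 FPKM. Both are kept in the sums and counts below.

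A cytosolic ribosome joins a small subunit, which holds the mRNA and reads its codons, to a large subunit, which forms the peptide bonds and lets the new chain out through a tunnel. Each ribosomal protein is needed in equal number per ribosome, with the stalk proteins as the known exception, and their mRNAs are short and abundant in most cells. These mRNAs are known for a terminal oligopyrimidine start, a cytosine at the first base followed by a run of pyrimidines. Through this start, the growth regulator mTOR and the binding protein Larp1 control how well they are translated. Liver makes large amounts of secreted protein and depends on many ribosomes.

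The starts of 9 members are shown, because ribosomal protein mRNAs are known for this kind of start. They comprise the 4 members of highest mean level (Rpl10, Rps2, Rplp0 and Rpl41), the member with the smallest p (Rps12), and 2 of the pairs of a ribosomal protein with a paralog. Each line gives 15 bases before and 15 bases from the annotated start in RefSeq's promoter table for GRCr8, 5′ to 3′ on the gene's strand. Capitals mark a cytosine within 5 bases of the start with the pyrimidine run of at least 4 further bases that follows it.
Rpl10: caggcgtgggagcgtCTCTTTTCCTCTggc
Rps2: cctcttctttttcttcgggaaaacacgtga
Rplp0: gaccgcaccgcaCTTCTCTCgccaggcgtc
Rpl41: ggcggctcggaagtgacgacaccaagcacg
Rps12: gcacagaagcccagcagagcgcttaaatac
Rps27: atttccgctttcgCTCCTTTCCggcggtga
Rps27l: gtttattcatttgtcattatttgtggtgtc
Rpl22: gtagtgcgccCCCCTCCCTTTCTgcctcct
Rpl22l1: gctccgtggatatccggttccgagttgcgc

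These stretches lie at chrX:157205835-157205864 (plus strand) for Rpl10, chr10:14251833-14251862 (plus) for Rps2, chr12:46718376-46718405 (minus) for Rplp0 and chr7:1563483-1563512 (minus) for Rpl41. They lie at chr1:23500060-23500089 (plus) for Rps12, chr2:177964592-177964621 (minus) for Rps27 and chr8:76443643-76443672 (plus) for Rps27l. For Rpl22 the stretch is chr5:168117946-168117975 (plus) and for Rpl22l1 chr2:113683181-113683210 (plus). Rpl10, Rplp0, Rps27 and Rpl22 held a pyrimidine run marked in capitals, while Rps2, Rpl41, Rps12 and the paralogs Rps27l and Rpl22l1 held none. The Rps2 stretch still opens with unbroken pyrimidines up to the first base from the annotated start. No cytosine near enough to that start had a run after it long enough to be marked. A run that is not found says only that no stretch near the annotated start meets this rule. The 2 pairs shown do not stand for all paralogs or copies. Rpl35al1, Rps4y2 and Rps9l1 held such a run, and Rps15al4 and Rpl7l1 did not. Standard members such as Rpl3 and Rpl5 also held none that meets the rule.

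Of the 88 symbols, 66 had a promoter entry. A start that meets this rule, called a pyrimidine start below, was held by 38 of the 66 (57.6%). It was held by 17.0% of all 27457 promoters and 17.1% of the 7904 promoters of other features tested. Among members with a single row, the median log2 fold change of TPN against control was 0.39 in 36 with a pyrimidine start and 0.35 in 23 without one, with quartiles of 0.30 to 0.46 and 0.25 to 0.46. The quartile ranges of both sets lay over each other. In the whole window of 300 bases, on both strands, the ETS core CCGGAA was found in 45.5% of member promoters, 30.1% of the promoters of other features tested and 15.8% of all promoters. The YY1 core AAGATGG was found in 18.2% of member promoters, 9.03% of those of other features tested and 7.3% of all. The E-box CACGTG was found in 7.58% of member promoters, 9.79% of those of other features tested and 6.65% of all. The TATA box letters TATAAA were found in 13.6% of member promoters, 6.77% of those of other features tested and 14.3% of all. The NRF1 motif was in 0 of 66 member promoters, 2.09% of those of other features tested and 0.932% of all.

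As a check of the tissue, all 8 hepatocyte markers were present, with a summed level of 40413 to 68963 FPKM in TPN livers and 62183 to 82878 FPKM in control livers. FPKM counts fragments relative to transcript length and to the library's mapped fragments, which allows levels of different genes to be set side by side. The depth of each library is unknown. Within the list 3 of 8 rows were positive and 5 negative, and no row passed limma's test. Only Ttr and Apoc3 had groups without overlap, both lower in TPN, with ratios of means of 0.369 and 0.57. The positive rows were Tat, Apoa1 and Serpina1, with ratios of means of 1.965, 1.154 and 1.121 and overlapping groups. Several marker lists differed between the groups. Of all features tested, 0.246% passed limma's test, 8.02% were higher in TPN without overlap and 9.09% were lower. In the erythroid list 6 of 6 rows were lower in TPN, 4 of which passed limma's test, with summed levels of 231 to 578 FPKM in TPN and 2125 to 2420 FPKM in control. In the proliferation list 7 of 7 rows were lower, 4 of which passed, with sums of 2.10 to 7.52 FPKM in TPN and 18.8 to 29.8 FPKM in control. The acute-phase list reached 101421 FPKM in TPN 1 and between 36225 and 43923 FPKM in the other TPN rats, against 51682 FPKM in control 2 and 18419 to 18515 FPKM in the other controls, so TPN 1 and control 2 stood apart. Stellate cell markers summed to 85.4 to 111 FPKM in TPN and 117 to 193 FPKM in control, and cholangiocyte markers to 6.42 to 8.14 FPKM in TPN and 10.7 to 14.0 FPKM in control, with no row of either list past the test. In the Kupffer cell and macrophage list 7 of 10 rows were positive, none past the test, and the sums were 479 to 657 FPKM in TPN and 394 to 595 FPKM in control. Its members Marco, Cd68 and Cd163 were higher in TPN without overlap, with ratios of means of 1.997, 1.576 and 1.474. The negative rows were Clec4f, C1qa and C1qc, with ratios of means of 0.809, 0.977 and 0.981 and overlapping groups. The part of these cell types in the ribosomal protein values was not tested. In whole liver, fewer cells of a type and less RNA per cell cannot be told apart.

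Ribosomal protein transcripts were more abundant in TPN livers than in control livers in nearly every row, by a similar and modest amount. Summed over all 95 rows they reached 15979, 13884 and 15086 FPKM in TPN 1, 2 and 3, against 11322, 11356 and 11775 FPKM in control 1, 2 and 3. The lowest TPN rat lay above the highest control. The mean was 14983 ± 1051 FPKM in TPN and 11484 ± 252 FPKM in control (SD, n = 3 each), a ratio of 1.31. This was 2.89% ± 0.23 of all FPKM of a TPN library and 2.18% ± 0.10 of a control library.

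The ratio of group means was close in both subunits. The large subunit rows summed to 9100, 8179 and 8837 FPKM in the TPN rats, against 6593, 6566 and 6994 FPKM in the controls, and the means of 8705 ± 474 and 6717 ± 240 FPKM in TPN and control stood in a ratio of 1.30. Small subunit rows summed to 6879, 5705 and 6249 FPKM in the TPN rats, against 4729, 4790 and 4781 FPKM in the controls, with means of 6278 ± 587 and 4767 ± 32.9 FPKM in TPN and control and a ratio of 1.32. The 3 controls lay close together in the small subunit, while the TPN rats were spread more widely. The large subunit sum divided by the small subunit sum was 1.32, 1.43 and 1.41 in the TPN rats and 1.39, 1.37 and 1.46 in the controls. These ratios overlapped, with means of 1.39 ± 0.059 in TPN and 1.41 ± 0.048 in control.

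**Figure D1:**
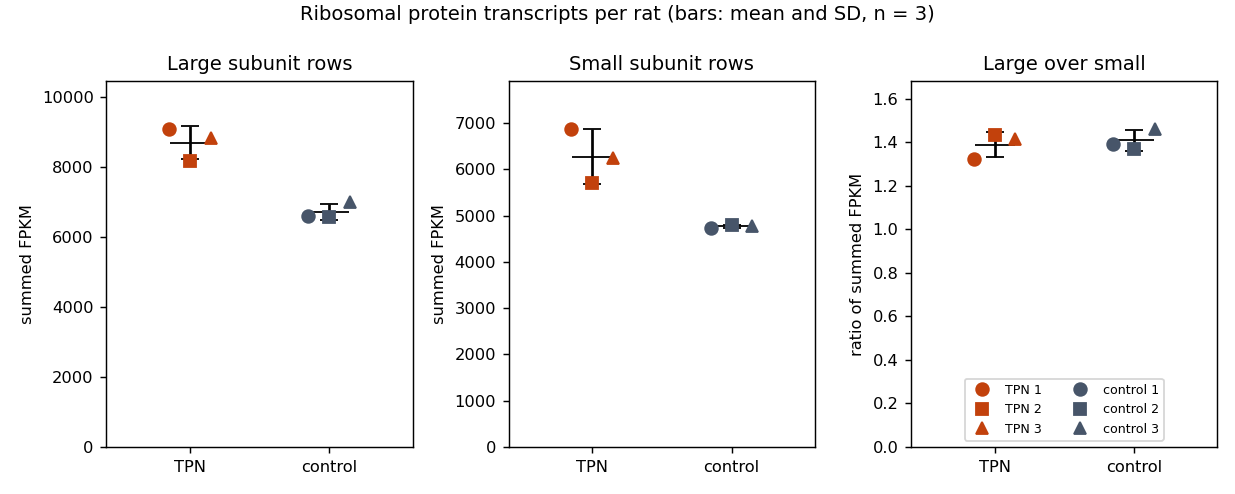
Summed FPKM of the 59 large subunit rows (left) and the 36 small subunit rows (middle), and their ratio (right), with 1 point per rat and the mean and SD of 3 rats. The TPN sums lie above all control sums in both subunits, and the ratios of the groups overlap around 1.39 in TPN and 1.41 in control.

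Levels differed widely between rows, with a mean over 200 FPKM in 17 large and 12 small subunit rows and of 1 to 20 FPKM in 7 large and 4 small subunit rows. Testing required a mean of 1 FPKM or more, which 90 of the 95 rows had, 54 large and 36 small. The 5 rows below it had means of 0.0343 to 0.318 FPKM, and the lowest row above it had 2.04 FPKM. On the log2(FPKM + 1) scale, 83 of the 90 rows had positive and 7 negative fold changes of TPN against control, where 5788 of 11362 features tested were positive. The median log2 fold change was 0.38 in large subunit rows (quartiles 0.28 and 0.46) and 0.37 in small subunit rows (0.31 and 0.44), against a median of 0.0065 over all features tested (-0.18 and 0.18). In 67 rows the ratio of the group means lay between 1.2 and 1.5, in 6 it was at least 1.5 and in 17 it was under 1.2.

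With limma and p adjusted over all features by Benjamini-Hochberg, 0 of the 90 rows were under 0.05, where 28 features, 0.246% of those tested, were. With sample weights the count of member rows was 1. At an unadjusted limma p under 0.05 there were 31 member rows, all higher in TPN, beside 4.44% of all features that were higher and 7.01% that were lower at that p. In 66 of the 90 rows all TPN rats lay above all controls, and in none did all lie below, beside 8.02% of all features that were higher without overlap and 9.09% that were lower. These shares describe rows that vary together in 6 animals. With TPN 1 and control 2 left out, the 2 rats with the highest acute-phase sum of their group, 81 of the 90 rows were positive and the median log2 fold change was 0.32, against a median of 0.020 over all features in that setting.

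**Figure D2:**
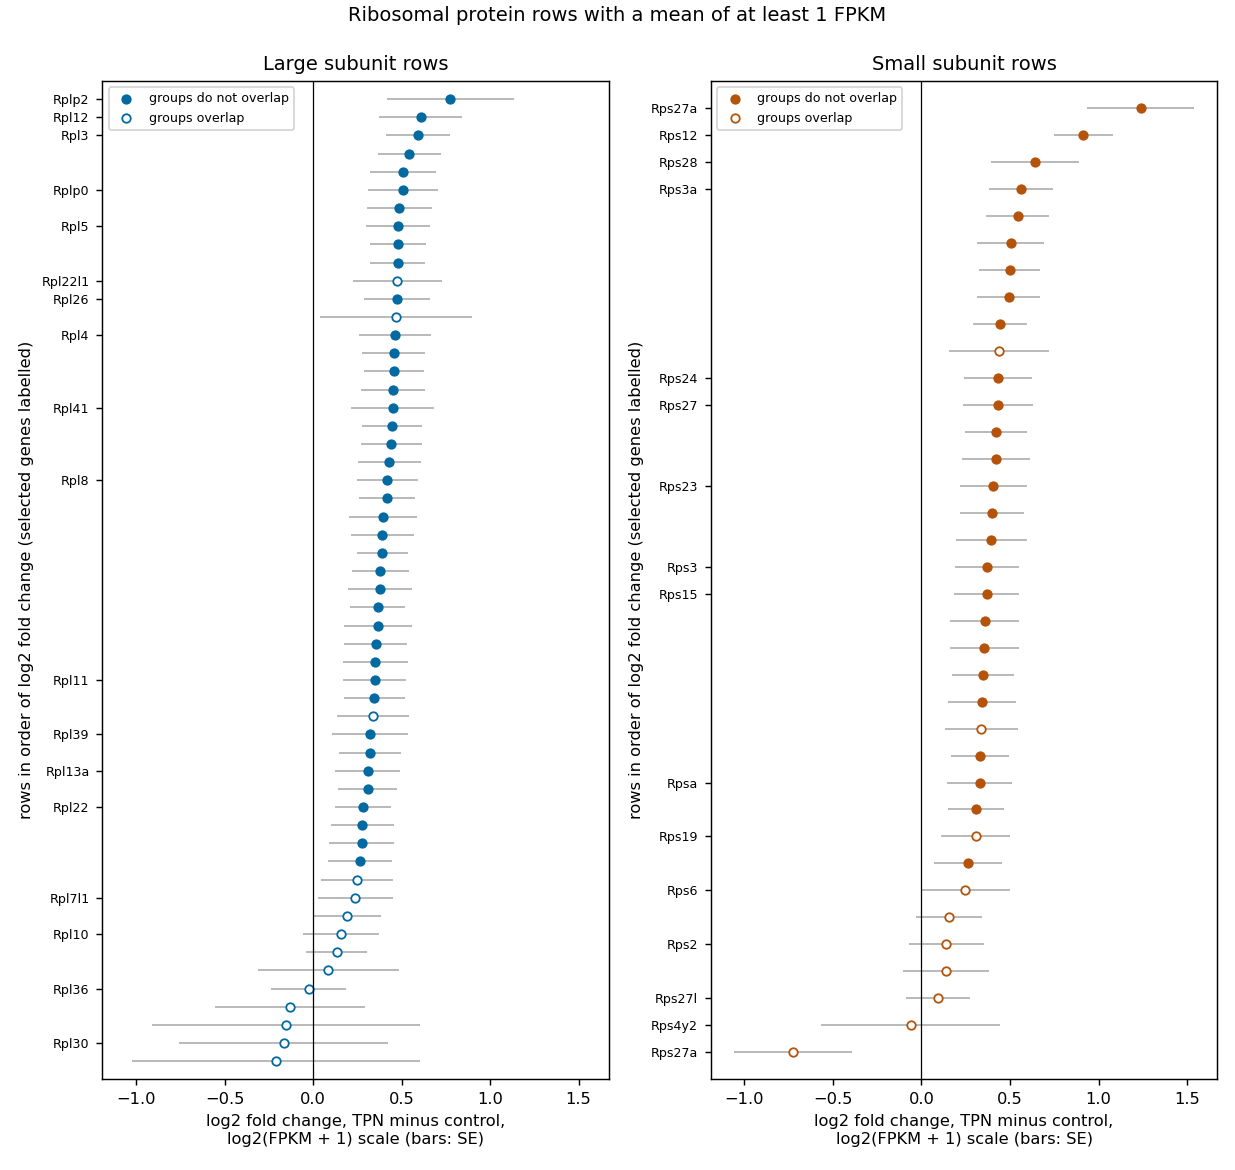
Log2 fold change of TPN against control with its SE for the 54 large subunit rows (left) and 36 small subunit rows (right) with a mean of at least 1 FPKM, with selected genes labelled, where filled points mark rows whose groups do not overlap (66 of 90). Most rows lie between 0.2 and 0.6, and 7 lie below 0, with 1 of the 2 Rps27a rows at each end of the small subunit.

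The rows were also steady within a group. Over the 79 rows with a mean of at least 20 FPKM, the median coefficient of variation was 9.32% among the TPN rats and 4.1% among the controls. Over all 2406 features at that level it was 22% among TPN rats and 12.6% among controls. In 48 of the 79 rows the controls varied by less than 5%. Rps3 measured 229, 191 and 223 FPKM in TPN 1, 2 and 3, against 165, 164 and 166 FPKM in the controls. Within the TPN group, TPN 1 was highest in 57 of the 90 rows and TPN 2 lowest in 59. In the small subunit TPN 1 was highest in 26 of 36 rows and in the large subunit in 31 of 54. The median row stood 0.49, 0.29 and 0.40 (log2) above the control mean in TPN 1, 2 and 3.

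The stalk of the large subunit recruits the elongation factors. Rplp0, which anchors the stalk, measured 455, 365 and 393 FPKM in TPN 1, 2 and 3, against 285, 297 and 268 FPKM in control 1, 2 and 3 (0.51 on the log2 scale with SE 0.20, limma adjusted p = 0.389). Rplp2, an acidic protein of the stalk tip, measured 110.4, 74.7 and 81.8 FPKM in TPN, against 28.0, 66.6 and 70.1 FPKM in control. Its groups did not overlap, but control 1 alone stood far below the other controls, and the change of 0.77 (log2) carried an SE of 0.36 and a limma adjusted p of 0.473. Without control 1 it was 0.36 (limma adjusted p = 0.988). Rpl12, at the base of the stalk, measured 236, 177 and 156 FPKM in TPN, against 107, 114 and 151 FPKM in control, so that TPN 3 and control 3 lay close to each other.

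Around the centre where peptide bonds form, Rpl3 measured 284, 266 and 305 FPKM in the TPN rats, against 187, 187 and 192 FPKM in the controls. The log2 fold change of 0.59 (SE 0.18, limma adjusted p = 0.295) was among the 8 largest of the members. Rpl8, a neighbour of that centre, averaged 156 ± 11.9 FPKM in TPN and 116 ± 2.74 FPKM in control (SD, n = 3). Rpl10, which joins the large subunit late in its assembly, had the highest mean level of all members and a small difference, with 351, 493 and 437 FPKM in the TPN rats, against 396, 372 and 368.9 FPKM in the controls. TPN 1 was the lowest of the 6 rats for Rpl10, while it was the highest for Rplp0.

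Rpl5 and Rpl11 carry the 5S ribosomal RNA into the large subunit and, when free, bind the p53 regulator Mdm2. Rpl5 measured 228, 263 and 228 FPKM in TPN 1, 2 and 3, against 166, 172 and 175 FPKM in the controls, and Rpl11 averaged 212 ± 14.4 FPKM in TPN and 167 ± 5.38 FPKM in control. Neither overlapped between groups (limma adjusted p = 0.378 and 0.51). Several proteins line the tunnel or its exit. Rpl4 averaged 327.5 ± 38.1 FPKM in TPN and 237 ± 26.0 FPKM in control, Rpl26 350.5 ± 22.7 FPKM in TPN and 252 ± 9.56 FPKM in control, and Rpl17 108.5 ± 7.06 FPKM in TPN and 74.4 ± 9.62 FPKM in control. Rpl19 (ratio of means 1.21), Rpl23a (1.33) and Rpl31 (1.31) were higher in TPN without overlap, and Rpl35 (1.27) overlapped.

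The very small proteins Rpl41 and Rpl39 differed among the TPN rats. Rpl41 measured 490, 298 and 372 FPKM in TPN 1, 2 and 3, against 275, 271 and 285 FPKM in the controls, and Rpl39 132, 86.0 and 87.9 FPKM in TPN, against 76.7, 79.1 and 83.8 FPKM in control. For both genes TPN 1 stood far above the other TPN rats, at 1.46 and 1.52 times their mean. Rpl13a, known in other systems for leaving the ribosome to silence inflammatory mRNAs, averaged 232.5 ± 21.2 FPKM in TPN and 187 ± 2.89 FPKM in control. Rpl36 had overlapping groups, with 214, 165 and 248 FPKM in TPN, against 204, 208 and 217 FPKM in control, and a log2 fold change of -0.024 (SE 0.21).

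In the small subunit, Rps12, which sits in the beak of the head, had the smallest p of all members. It measured 116, 121 and 100.4 FPKM in TPN 1, 2 and 3, against 59.9, 58.7 and 58.7 FPKM in control 1, 2 and 3. The 3 TPN rats lay well above the controls, which hardly differed from each other. The log2 fold change of 0.91 (SE 0.17) did not pass over all features (limma adjusted p = 0.0928), and over the alternatives the limma adjusted p ran from 0.0171 to 0.405. It passed only with sample weights, which give more variable rats less say.

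Rps28, near the exit of the mRNA channel, measured 151, 85.2 and 94.5 FPKM in the TPN rats, against 59.1, 70.0 and 76.3 FPKM in the controls, with TPN 1 at 1.68 times the mean of the other TPN rats. Rps3a averaged 317 ± 8.63 FPKM in TPN and 215 ± 8.59 FPKM in control, with all TPN rats above all controls. At the mRNA entry, Rps3 averaged 214.5 ± 20.2 FPKM in TPN and 165 ± 0.868 FPKM in control. Its neighbour Rps2 measured 435, 304 and 368 FPKM in TPN, against 338, 336 and 320.2 FPKM in control, and TPN 2 lay below every control.

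Rps23 and Rps15, which lie at the decoding site, averaged 273 ± 28.2 and 224 ± 25.2 FPKM in TPN, against 205 ± 6.73 and 173 ± 2.81 FPKM in control. Rpsa, needed for assembly of the small subunit and also known as a laminin receptor, averaged 298 ± 20.8 FPKM in TPN and 237 ± 4.53 FPKM in control. Rps6, the target of the S6 kinases downstream of mTOR, measured 166, 107 and 135 FPKM in TPN, against 126, 131 and 85.8 FPKM in control, and its groups overlapped. Rps19 and Rps24, both mutated in human Diamond-Blackfan anaemia, differed in this respect. Rps24 had 294, 225 and 261 FPKM in TPN, against 191, 188 and 195 FPKM in control, without overlap. Rps19 had 68.0, 59.4 and 45.4 FPKM in TPN, against 43.3, 46.4 and 47.6 FPKM in control, with TPN 3 between the controls.

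**Figure D3:**
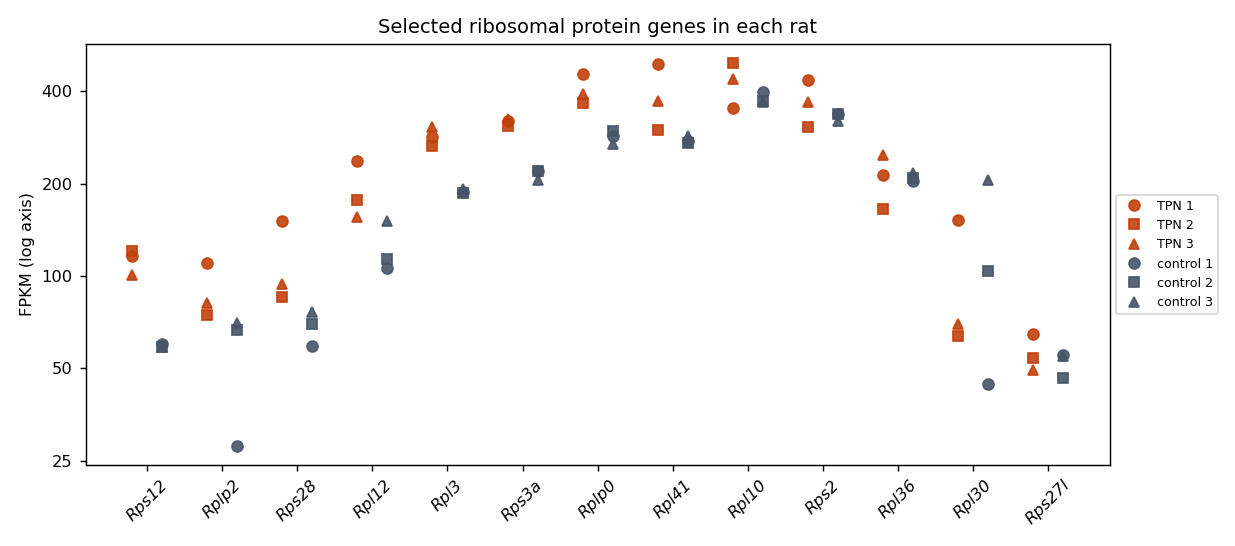
FPKM of 13 ribosomal protein genes in each rat on a log axis, TPN rats left and control rats right of each gene's position. All TPN rats lie above all controls for the first 8 genes, from Rps12 to Rpl41, and the groups overlap for Rpl10, Rps2, Rpl36, Rpl30 and Rps27l.

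The extremes of the small subunit were both rows of 1 gene. Rps27a, made as a fusion of ubiquitin and a small subunit protein, stood in 2 rows. The row ENSRNOG00000004426 measured 233, 262 and 302 FPKM in TPN 1, 2 and 3, against 69.6, 138 and 144 FPKM in control 1, 2 and 3 (1.24 on the log2 scale with SE 0.30, limma adjusted p = 0.202). The row ENSRNOG00000034246 measured 132, 74.6 and 60.9 FPKM in TPN, against 196, 121 and 117 FPKM in control (-0.73 on the log2 scale with SE 0.33, limma adjusted p = 0.468), with overlap. The rows thus differed in opposite directions. Their sum was 366, 336 and 363 FPKM in TPN and 266, 258 and 261 FPKM in control, so that the sum varied less within a group than either row. The sum differed by 0.44 on the log2 scale (SE 0.18, limma adjusted p = 0.421), close to the median of the members. The first row held 63.8%, 77.8% and 83.2% of the sum in TPN 1, 2 and 3, against 26.2%, 53.4% and 55.3% in control 1, 2 and 3. How the deposited values divide fragments between near-identical rows is not given in the sources used here.

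**Figure D4:**
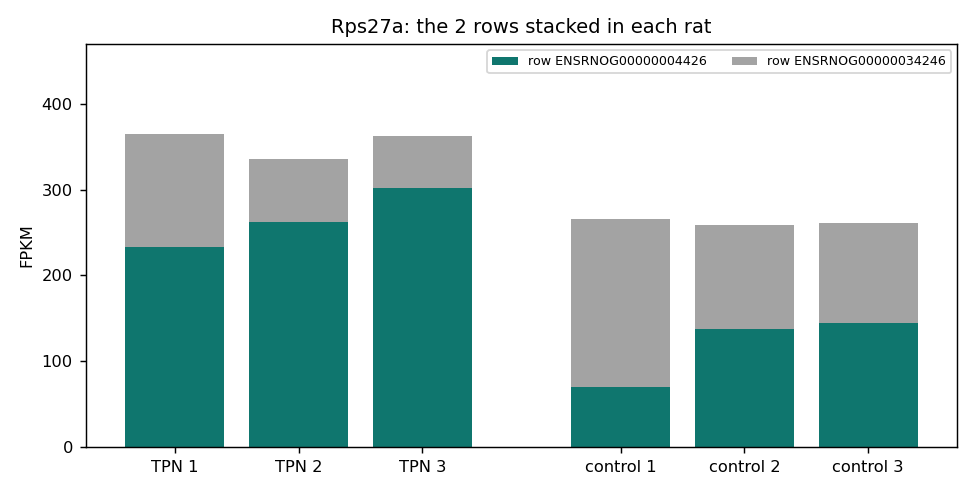
FPKM of the 2 Rps27a rows, stacked, in each rat. The sums are even within a group (336 to 366 FPKM in TPN and 258 to 266 FPKM in control), while the share of the lower part of each bar varies from 26.2% to 83.2%.

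RefSeq's gene table for GRCr8 lists 812 pseudogenes named after a member, for 75 of the 88 symbols, with a median of 9 per symbol, 34 for Rps2 and 29 for Rps27a. How reads shared with such copies were assigned, and what part this has in the values, was not tested. The number of named pseudogenes and the log2 fold change were nearly unrelated across the 90 rows (Pearson's r 0.038, Spearman's rho 0.075, as a description across genes that share the same 6 libraries). The mean level and the change were also nearly unrelated across the 79 rows of at least 20 FPKM (r 0.032, rho 0.037). Rpl30, which lies where the subunits meet, was the least steady of the 79 rows among the controls, with 152, 63.6 and 69.6 FPKM in TPN, against 44.6, 104 and 206 FPKM in control. Other repeated symbols stood in rows of like or of very unlike level. The 2 Rpl7a rows averaged 79.1 ± 1.97 and 87.6 ± 3.24 FPKM in TPN, against 56.5 ± 2.47 and 62.6 ± 2.77 FPKM in control, and the 4 Rpl21 rows, 1 of them at 0.254 FPKM over the 6 rats, summed to 288 ± 20.7 FPKM in TPN and 223 ± 9.64 FPKM in control. The 2 Rpl32 rows averaged 207.5 ± 26.1 and 7.57 ± 1.62 FPKM in TPN, against 160.2 ± 8.70 and 5.79 ± 0.549 FPKM in control, with all TPN rats above all controls in both. The 2 Rpl38 rows averaged 8.36 ± 3.90 and 3.34 ± 1.89 FPKM in TPN, against 5.90 ± 3.37 and 2.93 ± 1.33 FPKM in control, with overlap in both. Some standard members were listed far below the rest. Rpl9 averaged 3.11 FPKM in TPN and 2.15 FPKM in control, Rps29 2.38 FPKM in TPN and 1.69 FPKM in control, and Rpl35a 1.95 FPKM in TPN and 2.33 FPKM in control. Rpl37 lay under the filter, at 0.318 FPKM over the 6 rats.

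Rows under other symbols than the standard ones were less far apart between the groups. Their median log2 fold change was 0.24 in 13 rows past the filter, against 0.39 in 77 rows with a standard symbol. Of the 13 rows 10 were positive and 4 were higher without overlap. Of the 77 rows 73 were positive and 62 higher without overlap. The share of all features tested that were higher without overlap was 8.02%. Some of the 13 rows were low, such as Rps15al4 and Rpl35al1 at means of 2.35 and 2.60 FPKM. Changes of low rows are understated on the log2(FPKM + 1) scale. Rps27l, a paralog of Rps27 known as a p53 target, measured 64.9, 54.0 and 49.3 FPKM in TPN, against 55.2, 46.6 and 54.9 FPKM in control, while Rps27 measured 220.3, 197 and 191 FPKM in TPN, against 127, 159 and 165 FPKM in control. Rpl22l1, a paralog of Rpl22, measured 50.1, 38.1 and 51.6 FPKM in TPN, against 42.4, 23.4 and 35.8 FPKM in control, with overlap. Rpl22 itself averaged 87.3 ± 3.31 FPKM in TPN and 71.7 ± 1.02 FPKM in control, without overlap. Rpl7l1, which belongs to assembly of the large subunit, measured 33.1, 34.9 and 53.3 FPKM in TPN, against 34.9, 32.8 and 32.4 FPKM in control, so that TPN 3 alone lay apart. Rpl3l, a paralog of Rpl3 found in muscle, lay under the filter at 0.0343 FPKM, and Rpl39l, known from testis, was listed at 0 in all but 1 rat, control 2. Rps4y2, a copy of the Rps4 gene that RefSeq's GRCr8 table places on chromosome 4, had 12.6, 2.73 and 4.44 FPKM in TPN, against 5.13, 9.38 and 3.92 FPKM in control. TPN 1 held its highest value. Whether the 2 kinds of row differ in their change was not tested.

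Ribosomal proteins with symbols outside the rule included Rack1 and Fau. Rack1, a platform for signalling proteins on the small subunit, measured 171, 156.5 and 160.4 FPKM in TPN 1, 2 and 3, against 113, 131 and 117 FPKM in control 1, 2 and 3, without overlap (limma adjusted p = 0.399), and its further row was listed at 0 in all rats. Fau, a fusion of a ubiquitin-like protein with a small subunit protein, had 25.2, 153 and 188 FPKM in TPN, against 128, 14.96 and 38.8 FPKM in control, a spread within groups far above that of the members.

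Related lists were read from the same limma fit, in which none of their rows passed over all features. In the ribosome biogenesis list, 31 of 33 rows were positive (median log2 fold change 0.59), 17 were higher without overlap and none lower. The shares over all features tested were 8.02% higher without overlap and 9.09% lower. Nop56, a core protein of the snoRNA particles that guide rRNA modification, measured 9.18, 15.3 and 19.8 FPKM in TPN 1, 2 and 3, against 5.74, 6.49 and 7.48 FPKM in the controls (limma adjusted p = 0.22). Gar1, of the pseudouridylation particle, and Nolc1, a nucleolar chaperone, had ratios of means of 1.84 and 2.04. The TPN rats stood in another order here than for the ribosomal proteins, since the list summed to 402, 484 and 628 FPKM in TPN 1, 2 and 3, against 345, 327 and 349.9 FPKM in the controls. Myc, a transcription factor of growth in that list, had 4.58, 6.09 and 2.99 FPKM in TPN, against 5.84, 4.05 and 4.61 FPKM in control.

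Of 31 translation factors 27 were positive, with a median of 0.21, and 11 were higher without overlap, beside 8.02% of all features. Eef1b2, a subunit of the exchange factor for elongation factor 1, measured 128, 115 and 115 FPKM in TPN, against 70.8, 90.9 and 76.1 FPKM in control. Eef1a1, the carrier of aminoacyl-tRNA, measured 1654, 1589 and 1346 FPKM in TPN, against 1216, 1668 and 1223 FPKM in control, and Eef2, which moves the ribosome along, 448, 506 and 379 FPKM in TPN, against 451, 484 and 458 FPKM in control. In both the groups overlapped. These mRNAs also begin with a pyrimidine run in mammals, and a link between such a start and the change was not tested. In the list of other mRNAs with such a start, 9 of 10 rows were positive (median 0.27) and 2 were higher without overlap. It holds Npm1, a nucleolar chaperone, with 91.6, 149 and 141 FPKM in TPN, against 97.7, 89.9 and 89.2 FPKM in control.

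Nutrient control of translation was split, with 9 of 18 rows positive, a median of 0.037, and 3 higher and 3 lower without overlap. Over all features tested 8.02% were higher and 9.09% lower without overlap. Eif4ebp2, a repressor of cap binding that mTOR inactivates, measured 23.4, 23.8 and 27.1 FPKM in TPN, against 42.0, 32.7 and 36.8 FPKM in control (limma adjusted p = 0.278), while its paralog Eif4ebp1 measured 26.1, 42.4 and 24.2 FPKM in TPN, against 20.6, 18.0 and 21.4 FPKM in control. Larp1 had overlapping groups and a ratio of means of 1.17, and Mtor had 5.01, 4.27 and 5.15 FPKM in TPN, against 5.47, 5.19 and 5.43 FPKM in control. The proteins of the mitochondrial ribosome are encoded by a separate family of nuclear genes. In the mitochondrial ribosome 46 of 75 rows were positive with a median of 0.039. Without overlap 4 of the 75 were higher and 2 lower, beside the same shares of 8.02% and 9.09% of all features. Its rows with the smallest p were Mrps18b, Mrps34 and Mrpl12, with ratios of means of 1.53, 1.31 and 1.48 and limma adjusted p from 0.417 to 0.481. The difference between the cytosolic and the mitochondrial medians was not tested.

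**Figure D5:**
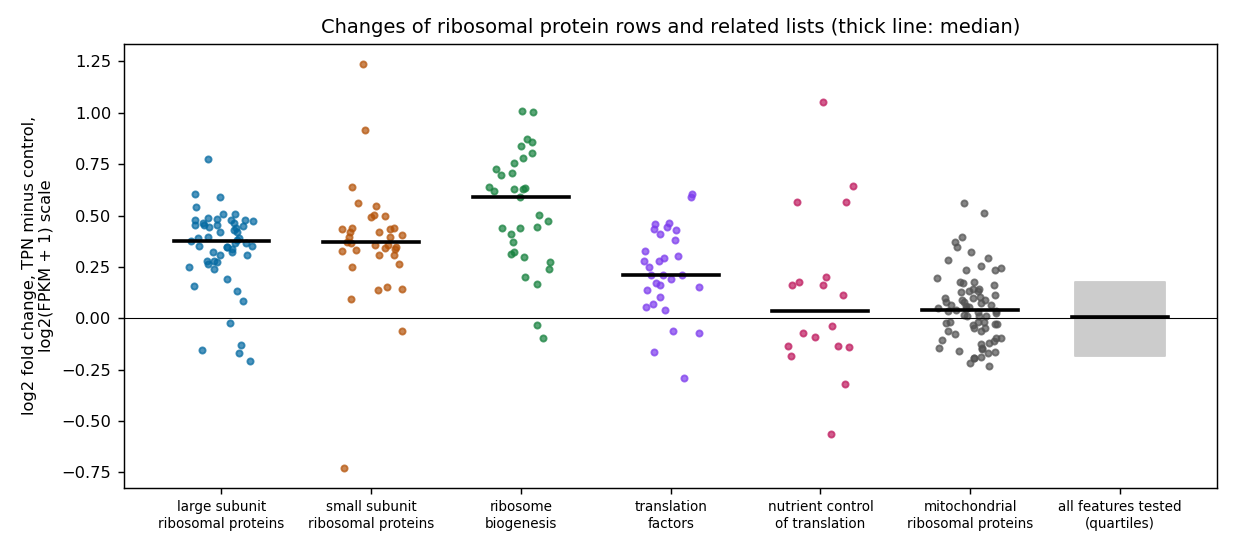
Log2 fold change of TPN against control on the log2(FPKM + 1) scale for each row of the ribosomal proteins and of 4 related lists (ribosome biogenesis, translation factors, nutrient control, mitochondrial ribosome), with the median as a thick line, and the quartiles of all features tested at the right. The medians are 0.38 and 0.37 for the large and small subunit, 0.59 for ribosome biogenesis, 0.21 for translation factors, 0.037 for nutrient control and 0.039 for the mitochondrial ribosome.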

How the data were processed

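RNA-seq of liver RNA was deposited as 1 table of FPKM for 6 rats, whose columns were matched to samples by name. Per the labels' protocols, RNA was extracted with TRIzol and libraries followed Illumina's standard methods. Bowtie 0.12.2, Cufflinks and the build Rnor_6.0 are named in the submitters' processing notes, without roles. The deposited FPKM come with no counts. At most 1.16% of the ratios between samples of values under 0.3 FPKM fell in 1 bin of 0.01 (log2), so whole reads could not be recovered and depth is unknown.

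The test was limma 3.58.1 in R 4.3.3 (with statmod 1.5.0) on log2(FPKM + 1) of features averaging 1 FPKM or more. It used moderation with trend and robust settings, no term beside the group, and a 2-sided p adjusted by Benjamini-Hochberg across 11362 features, with a threshold of 0.05. Fold changes on this scale understate low genes, and 3 against 3 rats cannot reach an exact p under 0.10. The fit was tested on simulated data. Members and lists were chosen with earlier results of these data known, the standard ribosome list after the table was seen. Named genes were the 8 largest changes in each direction at a mean of at least 5 FPKM (only 5 were negative), the 5 highest means, 24 fixed members, and the 3 smallest p of each list. Some of these are not reported here. Other genes were named after their values were seen. Of 88 symbols 85 matched RefSeq's GRCr8 table by symbol. Figures used matplotlib 3.10.9.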

Additional observations from a re-analysis of the deposited data

How the results depend on the processing

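In the alternatives that kept the 90 ribosomal protein rows, 81 to 87 were positive. Where the rows differed, 86 of 95 were positive without a filter, 85 of 92 at a minimum mean of 0.1 FPKM, 79 of 84 at 5 FPKM, 76 of 79 at 20 FPKM and 78 of 84 with rows of a symbol summed. The median log2 fold change lay between 0.29 and 0.46 over all 20 alternatives. The 1 subunit median that moved by more than the spread between rats was that of the large subunit, 0.47 after quantile normalisation. With 1 rat left out the large subunit median ran from 0.36 to 0.42 and the small subunit median from 0.31 (without TPN 1) to 0.44. The count of member rows past the threshold was 0 except with sample weights, where it was 1, Rps12 (log2 fold change 0.98, limma adjusted p = 0.0171). The count over all features was 28. It was 18 and 5 with pseudocounts of 0.1 and 0.01, 0 without a filter (1898 at an unadjusted p under 0.05), 6 at a minimum mean of 5 FPKM, 0 after median-ratio scaling or quantile normalisation (1578 and 1591), 8 without trend or robust settings, 299 with sample weights, and 0 to 46 with 1 rat left out (0 without TPN 3, where 1386 were at an unadjusted p under 0.05, 1 without TPN 2, 7 without control 1, 8 without control 3 and 46 without control 2). Added after seeing the data, it was 122 without control 2 and TPN 1 and 1 at a minimum mean of 20 FPKM. Fewer features were tested under the higher minimums. The cause of the other shifts was not tested.

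With the replicate number as a block the count over all features was 58 and that of member rows 0, with 9 at an unadjusted p under 0.05 against 31. Deviations of same-numbered rats correlated at -0.21, -0.14 and 0.32. TPN 1 and TPN 2 correlated best with another number, and TPN 3 with its own. The labels name no litter, batch or day, and whether the numbers mark a shared one was not tested. Of 638 values of 32 named rows, 623 kept direction and side of the threshold, and 14 reversed, none of them past it. Rps27a row ENSRNOG00000034246 was 0.44 with rows of a symbol summed. Rpl36 was 0.061 after quantile normalisation and -0.16 to 0.13 with 1 rat left out, positive without control 3 (0.0010) or TPN 2. Rps2 was -0.0082 with sample weights. Rps27l was -0.092 without control 2 and TPN 1 and -0.014 (without TPN 1) to 0.18 with 1 rat left out. In the same way Rpl10l ran from -0.39 to 0.36, Rpl30 from -0.73 to 0.36 and Rps4y2 from -0.59 to 0.34. Depth is unknown, so no counting limit can be given for low rows.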
